A study of Mus musculus with 16 samples.

Results

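The collagen genes described here are the entries of the deposited table whose symbol has the form Col, a type number, the letter a and a chain number. Of the 27179 entries, 44 matched this pattern, and 37 of these had a normalized count of at least 10 in at least 4 libraries, the filter that 14005 genes passed. The 37 were grouped by the kind of collagen they encode into 11 fibrillar, 8 basement membrane, 5 FACIT (collagens that sit on the surface of fibrils) and 13 other genes. The libraries came from cultured stromal cells of inguinal white fat from C57BL/6 mice, sorted for PDGFRb, a receptor of perivascular and adipose progenitor cells. They were split into DPP4_neg and DPP4_pos adipose progenitors, named APCs in the labels, by the surface peptidase DPP4. For 4 h each population was given either PBS as the vehicle or isoproterenol, a drug that activates beta-adrenergic receptors. The label gives the dose as 10 mM, and no file allows the unit to be checked. The 4 groups, DPP4_neg vehicle, DPP4_neg isoproterenol, DPP4_pos vehicle and DPP4_pos isoproterenol, hold 4 libraries each, all from the same strain, with no genetic change named. Age, sex and the number of animals are not given in the labels, which also do not say that the 4 libraries of a group came from separate animals or cultures. The p-values therefore rest only on how much these libraries vary, and that variation may be technical.

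Collagens are secreted proteins built of chains that wind around each other in a triple helix. Fibrillar collagens, chiefly types I, III and V in connective tissue, are trimmed by proteases outside the cell and then assemble into cross-linked fibrils. Type IV collagen forms the sheet-like network of basement membranes, which in fat surrounds each adipocyte and each vessel, and type VI collagen forms beaded filaments between the cells. Progenitor and fibroblast-like stromal cells make most of the collagen of white fat. In culture the assay reads their mRNA, not the protein that they deposit.

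The libraries held 9823799 to 28627223 reads in genes. Dpp4 averaged 21.1 ± 4.16 and 9.88 ± 2.29 normalized counts (mean ± SD, as in all that follows, with 4 libraries a group) in DPP4_neg vehicle and isoproterenol libraries, against 3053 ± 186 and 2223 ± 97.7 in DPP4_pos ones, as the labels say. Pdgfrb, the gene of the sort, averaged 11320, 9028, 7562 and 2105 in the same order. A normalized count is the number of reads of a gene divided by a size factor for its library. Differences were tested with limma over the 14005 genes on log2(normalized count + 1), and a gene was called higher or lower at a Benjamini-Hochberg adjusted p under 0.05. On this scale the change of a gene with few reads is understated.

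Collagen mRNA made up 4.65 ± 0.0414% of the normalized counts in DPP4_neg vehicle libraries, 4.70 ± 0.166% in DPP4_neg isoproterenol, 4.97 ± 0.0395% in DPP4_pos vehicle and 3.35 ± 0.0644% in DPP4_pos isoproterenol libraries. The 4 DPP4_pos isoproterenol libraries, at 3.39, 3.37, 3.26 and 3.39%, lay below every other library, the lowest of which was at 4.56%. Summed normalized counts of the collagen genes averaged 744500 ± 6263, 759600 ± 24740, 761200 ± 4386 and 620700 ± 10700 in the 4 groups, in the order given. The total of all normalized counts also differed between the groups, so with isoproterenol in DPP4_pos APCs the share fell further than the sum. Fibrillar genes supplied most of this total, with 64.2 ± 0.489% of it in DPP4_neg vehicle, 62.2 ± 1.14% in DPP4_neg isoproterenol, 77.7 ± 0.148% in DPP4_pos vehicle and 73.5 ± 0.615% in DPP4_pos isoproterenol. The share of basement membrane genes was 10.6 ± 0.223% and 7.64 ± 0.0886% in DPP4_neg and DPP4_pos vehicle libraries. It stood at 17.2 ± 0.321% and 13.9 ± 0.349% with isoproterenol, and each isoproterenol library lay above all vehicle libraries. FACIT genes held 10.7 ± 0.237% and 9.12 ± 0.864% of the collagen total in the DPP4_neg groups but 3.71 ± 0.0739% and 4.07 ± 0.211% in the DPP4_pos groups, again without overlap between the populations. Most of this share was Col12a1, with 74650 of 79650 normalized counts in DPP4_neg vehicle and 17000 of 28280 in DPP4_pos vehicle libraries. Of the 5 FACIT genes tested, 3 were called higher in DPP4_pos APCs under vehicle and 1, Col12a1, lower. Over all genes 31.6% were called higher and 35.0% lower in this comparison. The other genes held 14.6 ± 0.436%, 11.5 ± 0.487%, 10.9 ± 0.0538% and 8.55 ± 0.221% in the 4 groups. These shares are descriptions and were not tested. Since the counting favours long transcripts, shares per kilobase of transcript differed, with FACIT genes at 5.96% of the collagen total in DPP4_neg vehicle and 2.57% in DPP4_pos vehicle.

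**Figure D1:**
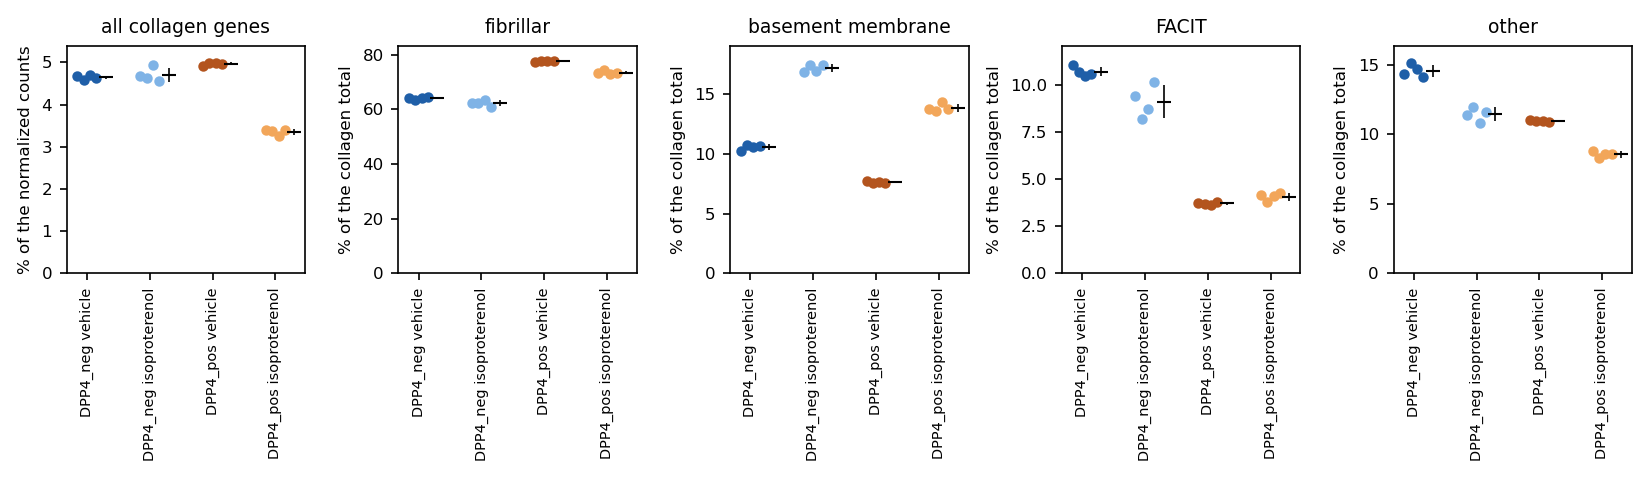
Share of the normalized counts that fell on collagen genes (first panel, %) and share of the collagen total in each class (other panels, %), 1 point per library, with the mean ± SD of the 4 libraries of each group as a cross. The collagen total is lowest in the 4 DPP4_pos isoproterenol libraries, at 3.26 to 3.39%, and the basement membrane share is higher with isoproterenol in both populations.

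Compared per kilobase of transcript, so that genes of different length can be set side by side, the order of the leading genes differed between the populations. In DPP4_neg vehicle libraries Col1a1 led with 26170 normalized counts per kilobase, followed by Col3a1 with 20600, Col1a2 with 18320 and Col5a2 with 10510. DPP4_pos vehicle libraries were led by Col3a1 with 49890, ahead of Col1a2 with 23450 and Col1a1 with 18770. At the low end Col6a5 and Col17a1 stood at 0.336 and 0.583 per kilobase in DPP4_neg vehicle libraries. The 10 genes with the most normalized counts held 91.8 to 94.4% of the collagen total in the 4 groups. A total of 27 of the 37 genes reached a normalized count of 10 in all 16 libraries. Of the other 10, some passed the filter through a single population or treatment, Col6a5, Col6a6 and Col9a3 through DPP4_pos, Col10a1 and Col2a1 chiefly through DPP4_neg and Col17a1 through isoproterenol libraries, so that a difference of theirs was a condition of being tested. Col4a3, Col4a4, Col6a4 and Col8a2 were the rest of these 10. Of the 7 genes that did not pass, Col13a1 had 75 reads in all 16 libraries together, Col26a1 38, Col19a1 34, Col9a2 33, Col22a1 28, Col25a1 19 and Col9a1 4.

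**Figure D2:**
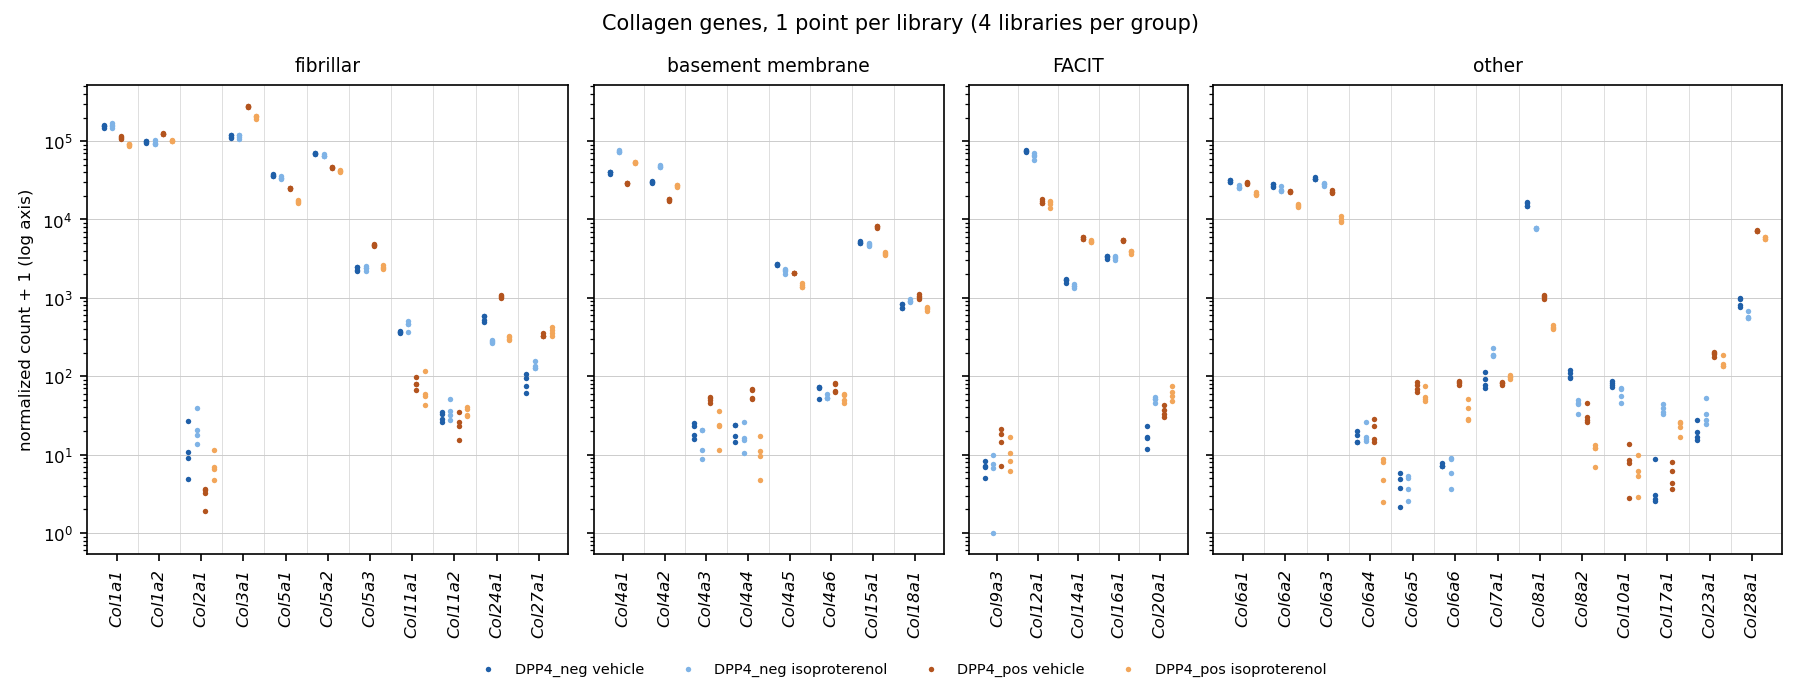
Normalized count plus 1 of the 37 collagen genes in every library, on a log axis, by class, with 1 point per library and 4 libraries per group. Chains of types I and III reach the highest counts, and genes such as Col8a1, Col12a1 and Col28a1 separate the DPP4_neg (blue) from the DPP4_pos (orange) libraries.

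Promoter sequence was at hand for 30 of the 37 genes, as RefSeq windows of 300 bases on GRCm38.p6 that run from 250 bases before the start site to 50 after it. Searched on both strands, CCAAT was in 11 of the 30 windows and GGGCGG, a sequence that Sp factors can bind, in 20, against 37.4% and 35.7% of all 32851 windows. TATAAA was in 4 of 30 (13.6% of all windows). TGACGTCA, the full palindrome that CREB-type factors can bind, was in 1 of 30, that of Col24a1 (1.79% of all windows). The motifs share no fixed bases with each other except where they happen to overlap in a window. The stretches around 5 such matches are shown, for Col3a1, Col5a3, Col17a1 and Col10a1 because of their differences between populations or treatments described below, and for Col1a2 because it encodes the partner chain of Col1a1. The motif is in capitals, and its position is that of its first base relative to the start site of the window. For Col5a3 that start site lies inside the gene and not at 20815117, the gene end given below.
Col1a2, CCAAT at -109, chr6:4505498-4505527, plus strand: aaagaatggaaCCAATttaagaagccccgt
Col3a1, TATAAA at -117, chr1:45311410-45311439, plus strand: ctaatgcatgtTATAAAcatatgcataggc
Col5a3, CCAAT at -122, chr9:20815171-20815200, minus strand: atctcagccagCCAATcagcgcgtggtgca
Col17a1, TATAAA at -91, chr19:47692115-47692144, minus strand: ttctgcccgtcTATAAAgtgtggttcctga
Col10a1, TATAAA at -32, chr10:34389938-34389967, plus strand: gaagaaaacagTATAAAtactccagggcag
These matches are letters in a window and were not tested as sites of binding. The stretch shown for Col1a2 overlaps an annotated exon of the genome annotation, and the other 4 do not.

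With isoproterenol, 8 of the 37 collagen genes were higher and 13 lower in DPP4_neg APCs, and 6 were higher and 23 lower in DPP4_pos APCs. Of all genes tested, 65.7% were called in DPP4_neg APCs (32.1% higher, 33.6% lower) and 82.7% in DPP4_pos APCs (39.4% higher, 43.3% lower), so the numbers called in all stand close to the background or below it. Genes called higher in both populations numbered 4 (25.9% of all genes) and those called lower in both 12 (26.4%). The median log2 difference of the 37 was -0.09 in DPP4_neg and -0.44 in DPP4_pos APCs, beside -0.02 and -0.05 over all genes. The response was lower in DPP4_pos than in DPP4_neg APCs for 22 of the 37 genes and higher for 1, in a test of the difference of the 2 responses, against 31.0% and 31.6% of all genes (62.6% called). DPP4_pos APCs were higher than DPP4_neg APCs in 16 and lower in 14 of the 37 genes under vehicle, and higher in 10 and lower in 20 under isoproterenol. The background for these was 66.6% under vehicle (31.6% higher, 35.0% lower) and 74.4% under isoproterenol (37.4% higher, 37.0% lower). Under both treatments 10 genes were higher in DPP4_pos APCs (18.5% of all genes) and 14 lower (19.5%). Calls of at least 2-fold numbered 5 of the 37 in the DPP4_neg response (15.3% of all genes), 11 in the DPP4_pos response (30.7%), 6 in the difference of the responses (15.6%), 16 between the populations under vehicle (15.8%) and 16 under isoproterenol (18.7%). Libraries of the groups compared did not overlap for 18 of the 37 genes in the DPP4_neg response (58.9% of all genes), for 29 in the DPP4_pos response (77.8%), for 30 between the populations under vehicle (67.3%) and for 28 under isoproterenol (63.9%). The comparisons share libraries, each vehicle or isoproterenol group standing in several of them, so that their results are not independent of each other. In bulk RNA, fewer cells of a kind and less RNA per cell cannot be told apart.

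The values were also scaled to the total of all genes outside the collagens, which takes the place of the size factor of each library. Collagen genes averaged only 3.35 to 4.97% of the normalized counts in the groups, so this is nearly a scaling to the total count. This scaling moved the median of all genes to -0.35 in the DPP4_pos response, to -0.30 in the difference of the responses and to -0.22 between the populations under isoproterenol. The collagen counts then became 5 higher and 27 lower, 0 higher and 28 lower, and 7 higher and 23 lower, and over all genes the calls became 3706 higher and 7995 lower, 2435 and 7103, and 3513 and 7189, where the deposited scaling gave 5517 and 6064, 4423 and 4342, and 5237 and 5181. Under vehicle this scaling gave 5205 genes higher and 4191 lower in DPP4_pos APCs, where the deposited one gave 4428 and 4898. Quantile normalization gave 12 collagen genes higher and 10 lower in the DPP4_neg response.

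**Figure D3:**
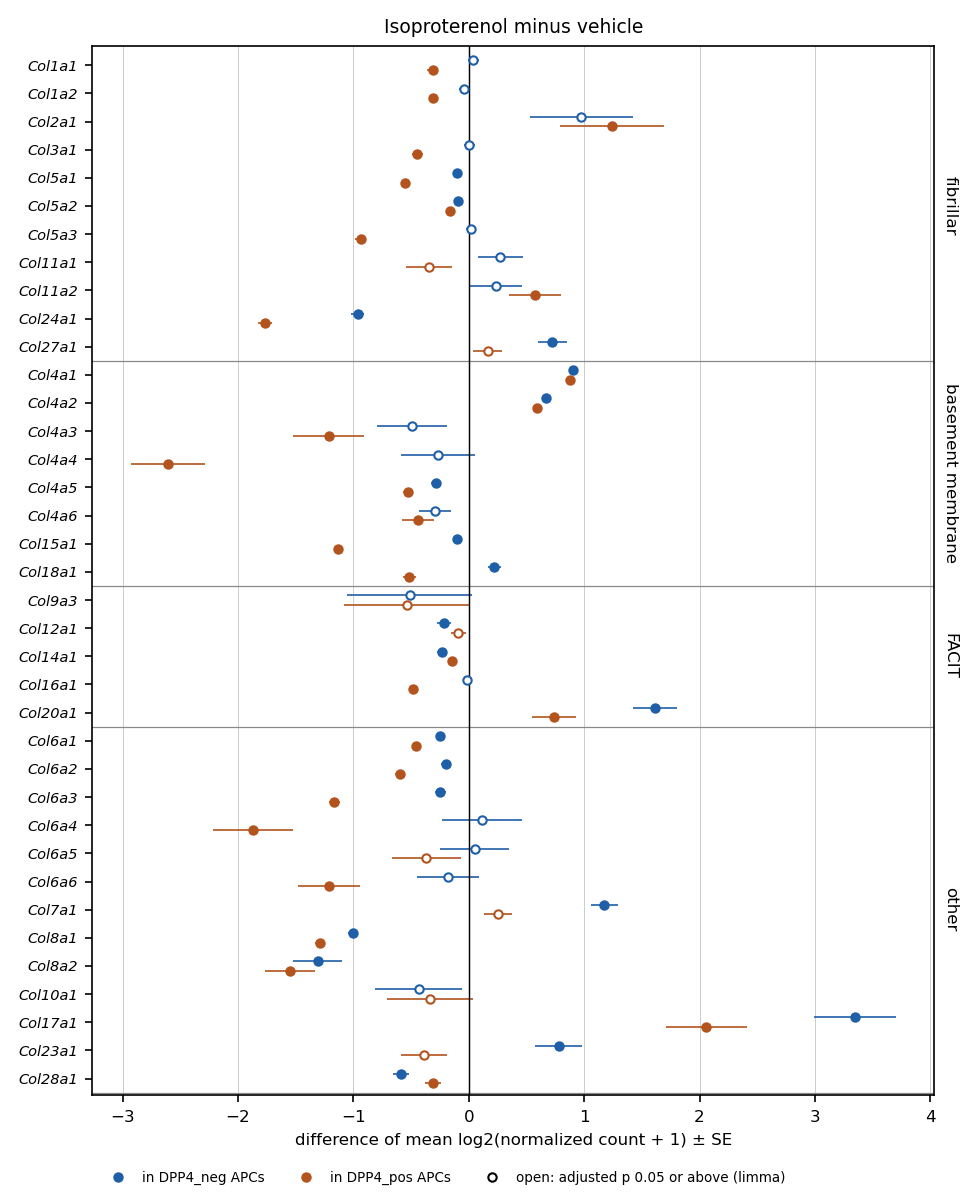
Difference of mean log2(normalized count + 1) between isoproterenol and vehicle for the 37 collagen genes, ± SE from limma, in DPP4_neg (blue) and DPP4_pos (orange) APCs, with 4 libraries per group. Filled points have an adjusted p under 0.05; Col4a1 and Col4a2 lie right of 0 in both populations, while most fibrillar and type VI genes lie left of 0 in DPP4_pos APCs.

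Among the fibrillar genes, the chains of types I and III fell with isoproterenol in DPP4_pos APCs and were not called in DPP4_neg APCs. Quantile normalization, unlike the deposited scaling, gave called rises in DPP4_neg APCs of 0.50 for Col1a1 (adjusted p = 1.55e-08), 0.28 for Col1a2 (adjusted p = 0.00171) and 0.13 for Col3a1 (adjusted p = 0.0201, limma). In that class 2 genes rose and 7 fell in DPP4_pos APCs, and 1 rose and 3 fell in DPP4_neg APCs, of 11. Over all genes 39.4% rose and 43.3% fell in DPP4_pos APCs, and 32.1% rose and 33.6% fell in DPP4_neg APCs. Col1a1, a chain of the main fibril-forming collagen of skin, bone and stroma (chromosome 11, 94936224 to 94953042 in GRCm38.p6, as for all positions here), stood at 158100, 147300, 154700 and 160800 normalized counts in the DPP4_neg vehicle libraries (replicates 1 to 4), at 156400, 161100, 172800 and 148700 in DPP4_neg isoproterenol, at 111800, 107700, 110100 and 115500 in DPP4_pos vehicle and at 91490, 89700, 85720 and 91120 in DPP4_pos isoproterenol libraries. The DPP4_neg groups overlapped, and both DPP4_pos groups lay below them, with the isoproterenol libraries lowest. In DPP4_pos APCs it was 1.24-fold lower with isoproterenol (log2 difference -0.31 ± 0.05 (SE), adjusted p = 3.67e-06, limma), and the response differed between the populations (log2 difference -0.35 ± 0.07 (SE), adjusted p = 0.000118). Between the populations it was 1.39-fold lower in DPP4_pos APCs under vehicle (log2 difference -0.48 ± 0.05 (SE), adjusted p = 1.29e-08) and 1.78-fold lower under isoproterenol.

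Col1a2 (chromosome 6, 4505618 to 4541543), the other chain of type I collagen, had 99990, 94690, 98150 and 99130 in DPP4_neg vehicle, 95030, 92310, 102400 and 91210 in DPP4_neg isoproterenol, 124400, 124500, 124200 and 128300 in DPP4_pos vehicle and 102300, 101700, 101300 and 100500 in DPP4_pos isoproterenol libraries. Its DPP4_pos vehicle libraries were the high ones, unlike those of Col1a1, and the other 3 groups lay close together. In DPP4_pos APCs it fell 1.24-fold with isoproterenol (log2 difference -0.31 ± 0.04 (SE), adjusted p = 6.15e-07, limma), and the responses differed (log2 difference -0.26 ± 0.06 (SE), adjusted p = 0.000505). Under vehicle it was 1.28-fold higher in DPP4_pos APCs (log2 difference 0.36 ± 0.04 (SE), adjusted p = 1.2e-07). Under isoproterenol the log2 difference was 0.09 (adjusted p = 0.0491, limma), with overlapping libraries, and it was -0.04 after quantile normalization and -0.12 with scaling outside the collagens (adjusted p = 0.0106, a call of the opposite sign). The call with the deposited scaling was lost when any 1 of 15 of the 16 libraries was left out.

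Col3a1 (chromosome 1, 45311538 to 45349706), whose product forms fibrils with type I collagen in elastic tissues, had 112200, 118300, 119500 and 108500 in DPP4_neg vehicle, 118900, 113800, 120800 and 106600 in DPP4_neg isoproterenol, 273200, 281800, 281900 and 273500 in DPP4_pos vehicle and 206500, 209100, 193500 and 206100 in DPP4_pos isoproterenol libraries. Every DPP4_pos library lay above every DPP4_neg library, and isoproterenol lowered the level in DPP4_pos APCs without overlap. The fall there was 1.36-fold (log2 difference -0.45 ± 0.05 (SE), adjusted p = 2.59e-08, limma), beside a log2 difference of 0.00 ± 0.05 (adjusted p = 0.949) in DPP4_neg APCs, and the difference of the responses was -0.45 (adjusted p = 8.22e-06). Between the populations Col3a1 was 2.42-fold higher in DPP4_pos APCs under vehicle (log2 difference 1.28 ± 0.05 (SE), adjusted p = 7.52e-16) and 1.77-fold higher under isoproterenol (adjusted p = 1.44e-12). Its neighbour Col5a2 starts from the opposite strand with a gap of 24624 bases between the genes. It went the other way between the populations under vehicle, with a log2 difference of -0.60. An annotated transcript on the strand of Col3a1, Gm47302, shares 141 of the 5564 exon bases of Col3a1, and its reads cannot be told apart from those of Col3a1 there.

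Type V collagen sits in the core of type I fibrils and limits their width. Col5a1 fell with isoproterenol in both populations, from 36680 to 34220 in DPP4_neg and from 24960 to 17050 in DPP4_pos APCs. The difference of the responses was -0.45 (adjusted p = 2.59e-07, limma). Col5a2 averaged 69630, 65350, 46050 and 41170 in DPP4_neg vehicle, DPP4_neg isoproterenol, DPP4_pos vehicle and DPP4_pos isoproterenol libraries, and no difference of its responses was called with the deposited scaling (log2 difference -0.07 ± 0.05 (SE), adjusted p = 0.227, limma), while one was after quantile normalization (-0.52, adjusted p = 4e-06), with scaling outside the collagens (-0.36, adjusted p = 1.88e-06) and with edgeR (-0.12, adjusted p = 0.0292). In DPP4_neg APCs the calls of both were slight, with log2 differences of -0.10 (adjusted p = 0.0239) and -0.09 (adjusted p = 0.0256) by limma and overlapping libraries. The Col5a1 call was lost without DPP4_neg vehicle replicate 1 or 4 or DPP4_neg isoproterenol replicate 2 or 4, and the Col5a2 call without DPP4_neg vehicle replicate 3 or DPP4_neg isoproterenol replicate 1 or 4; leaving out 1 library gave -0.13 to -0.09 for Col5a1 and -0.12 to -0.08 for Col5a2. Both calls were also lost with no filter on low values, after quantile normalization and in fits of only the groups compared.

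The third type V chain behaved otherwise. Col5a3 (chromosome 9, 20770050 to 20815117) had 2206, 2462, 2499 and 2257 in DPP4_neg vehicle, 2402, 2390, 2551 and 2208 in DPP4_neg isoproterenol, 4619, 4828, 4693 and 4680 in DPP4_pos vehicle and 2599, 2483, 2405 and 2347 in DPP4_pos isoproterenol libraries. Only the DPP4_pos vehicle libraries stood apart, about level with each other, and the other 3 groups overlapped. In DPP4_pos APCs isoproterenol lowered it 1.92-fold (log2 difference -0.94 ± 0.05 (SE), adjusted p = 2.59e-14, limma), and the difference of the responses was -0.96 (adjusted p = 4.1e-11). It was 2-fold higher in DPP4_pos than in DPP4_neg APCs under vehicle (adjusted p = 1.95e-14), and 0.04 on the log2 scale (adjusted p = 0.405) under isoproterenol, where quantile normalization gave -0.20 (adjusted p = 0.000378) and scaling outside the collagens -0.17 (adjusted p = 0.00195, limma).

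Col24a1 (chromosome 3, 145292472 to 145552013), a fibrillar chain known from bone and cornea, showed the largest fall of its class in both populations. It stood at 586, 527, 582 and 494 in DPP4_neg vehicle, 284, 276, 267 and 293 in DPP4_neg isoproterenol, 1007, 1023, 1092 and 1056 in DPP4_pos vehicle and 325, 298, 292 and 312 in DPP4_pos isoproterenol libraries. The vehicle groups lay apart from each other and above both isoproterenol groups, which overlapped at their edges. Isoproterenol lowered it 1.95-fold in DPP4_neg (log2 difference -0.96 ± 0.06 (SE), adjusted p = 2.4e-12, limma) and 3.4-fold in DPP4_pos APCs (log2 difference -1.76 ± 0.06 (SE), adjusted p = 2.1e-17), and the responses differed by -0.80 (adjusted p = 2.54e-08). Under vehicle it was 1.91-fold higher in DPP4_pos APCs (adjusted p = 3.94e-12). Under isoproterenol the log2 difference was 0.13 (adjusted p = 0.0465, limma), a call lost when any of 10 libraries was left out, with no filter on low values, in a fit of only the groups compared, with a replicate block (adjusted p = 0.052), with edgeR and with DESeq2, and turned to -0.09 with scaling outside the collagens.

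Col11a1 (chromosome 3, 114030479 to 114220756), a chain of the fibril-nucleating type XI collagen of cartilage that stromal cells also make, had 359.9, 369, 379 and 363 in DPP4_neg vehicle, 467, 360.5, 503 and 459 in DPP4_neg isoproterenol, 97.7, 79.5, 78.8 and 65.9 in DPP4_pos vehicle and 116, 57.5, 55.5 and 41.3 in DPP4_pos isoproterenol libraries. All DPP4_neg libraries lay above all DPP4_pos ones, and within each population the treatments overlapped. It was 4.57-fold lower in DPP4_pos APCs under vehicle (log2 difference -2.19 ± 0.20 (SE), adjusted p = 2.12e-09, limma) and 7-fold lower under isoproterenol (log2 difference -2.81 ± 0.20 (SE), adjusted p = 2.61e-11). Neither response to isoproterenol passed the test, with log2 differences of 0.27 and -0.34. The first was called in a fit of only the groups compared (adjusted p = 0.0105, limma) and with edgeR (adjusted p = 0.0407), and the second with scaling outside the collagens (-0.64, adjusted p = 0.0049, limma) but was 0.16 after quantile normalization.

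Col27a1, a fibrillar chain of cartilage, went the other way from Col11a1 between the populations. It averaged 83.3 ± 19.7, 136 ± 14.5, 333 ± 14.4 and 375 ± 42 in DPP4_neg vehicle, DPP4_neg isoproterenol, DPP4_pos vehicle and DPP4_pos isoproterenol libraries. It was 4.04-fold higher in DPP4_pos APCs under vehicle (adjusted p = 4.64e-12, limma), and rose 1.65-fold with isoproterenol in DPP4_neg APCs (adjusted p = 3.34e-05). Col2a1, the main cartilage collagen, and Col11a2 were close to the limit of the filter, with means of 11.9 and 29.6 in DPP4_neg vehicle libraries. In DPP4_pos APCs Col2a1 averaged 2.09 with vehicle and 6.42 with isoproterenol, below the level of 10 that the filter asks. Col11a2 averaged 23.8 and 34.7 there. Both were called higher with isoproterenol in DPP4_pos APCs, at log2 differences of 1.24 (adjusted p = 0.0148) and 0.58 (adjusted p = 0.024) by limma. The Col2a1 call was lost with a pseudocount of 5, with edgeR and without DPP4_pos vehicle replicate 3 or DPP4_pos isoproterenol replicate 2. The Col11a2 call was lost without DPP4_pos vehicle replicate 1, where the value was 0.36 (DPP4_pos isoproterenol replicate 3 or 4 left out gave the same loss), and with scaling outside the collagens (0.29, adjusted p = 0.245, limma), no filter on low values, edgeR and DESeq2. Of 8 cartilage markers 4 were tested, their summed level was 2851 to 3294 and 2020 to 2309 in the vehicle and isoproterenol libraries of DPP4_neg APCs, and 944 to 1009 and 498 to 583 in those of DPP4_pos APCs, nearly all from Comp and Sox9, and Acan had 17 reads in all libraries. Their part in these differences was not tested.

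In the basement membrane class, the chains of the general type IV network rose with isoproterenol in both populations, whereas the less common type IV chains and the multiplexins, types XV and XVIII, mostly fell in DPP4_pos APCs. By the test, 2 of the 8 genes rose and 6 fell in DPP4_pos APCs, and 3 rose and 2 fell in DPP4_neg APCs. Over all genes the shares were 39.4% and 43.3% in DPP4_pos APCs and 32.1% and 33.6% in DPP4_neg APCs. Col4a1 (chromosome 8, 11198423 to 11312889) had 38450, 40150, 40340 and 40250 in DPP4_neg vehicle, 73410, 74360, 77590 and 73050 in DPP4_neg isoproterenol, 29210, 28870, 29410 and 28550 in DPP4_pos vehicle and 53240, 52380, 54120 and 53620 in DPP4_pos isoproterenol libraries. The 4 groups did not overlap, and isoproterenol libraries were the higher in each population. The rise was 1.87-fold in DPP4_neg (log2 difference 0.91 ± 0.03 (SE), adjusted p = 4.12e-16, limma) and 1.84-fold in DPP4_pos APCs (log2 difference 0.88 ± 0.03 (SE), adjusted p = 3.06e-16), and a difference of the responses was not called (log2 difference -0.03 ± 0.05 (SE), adjusted p = 0.628), except with scaling outside the collagens (-0.31, adjusted p = 6.06e-06). DPP4_pos APCs had 1.37-fold less under vehicle (adjusted p = 7.49e-11) and 1.4-fold less under isoproterenol (adjusted p = 2.19e-11).

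Col4a2 (chromosome 8, 11312805 to 11449287), which is read from the other strand of the same promoter region and shares 85 bases with Col4a1, had 29540, 30350, 30350 and 30730 in DPP4_neg vehicle, 46990, 49220, 48490 and 47440 in DPP4_neg isoproterenol, 18030, 17360, 17730 and 18220 in DPP4_pos vehicle and 27390, 26300, 27250 and 26620 in DPP4_pos isoproterenol libraries. Again the 4 groups lay apart, with DPP4_neg isoproterenol highest and DPP4_pos vehicle lowest. It rose 1.59-fold in DPP4_neg (log2 difference 0.67 ± 0.03 (SE), adjusted p = 3.34e-14, limma) and 1.51-fold in DPP4_pos APCs (log2 difference 0.59 ± 0.03 (SE), adjusted p = 1.11e-13). A difference of its responses was not called with the deposited scaling (-0.07, adjusted p = 0.149) but was after quantile normalization (-0.35), with scaling outside the collagens (-0.36) and with edgeR (-0.13, adjusted p = 0.0191). Its level in DPP4_pos APCs was 1.7-fold lower under vehicle and 1.79-fold lower under isoproterenol (adjusted p = 3.02e-15 and 5.01e-16). Only 22 exon bases are common to both genes, of 6615 in Col4a1.

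Col4a5, a chain of the specialised networks of kidney and smooth muscle, fell in both populations while Col4a1 and Col4a2 rose. It averaged 2675 ± 39, 2194 ± 111, 2077 ± 19.9 and 1441 ± 73 in DPP4_neg vehicle, DPP4_neg isoproterenol, DPP4_pos vehicle and DPP4_pos isoproterenol libraries. The log2 differences were -0.29 (adjusted p = 1.32e-06) and -0.53 (adjusted p = 3.77e-11), and that between the responses was -0.24 (adjusted p = 0.000706, limma). Col4a6, its neighbour on chromosome X at a gap of 1274 bases, was low throughout, with a range of 50.6 to 71.7 in DPP4_neg vehicle and 45.1 to 57.5 in DPP4_pos isoproterenol libraries. Its fall in DPP4_pos APCs (log2 difference -0.44 ± 0.14 (SE), adjusted p = 0.00647, limma) turned to 0.10 after quantile normalization.

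Col4a3 and Col4a4, the pair of kidney glomerulus chains that overlap by 114 bases, were few in reads but separated the treatments in DPP4_pos APCs. Col4a4 had 50.2, 66.9, 65.5 and 51.5 in DPP4_pos vehicle and 10.1, 8.71, 16.1 and 3.76 in DPP4_pos isoproterenol libraries, beside 22.9, 13.6, 23 and 16.2 in DPP4_neg vehicle and 25.1, 15.4, 9.46 and 14.4 in DPP4_neg isoproterenol libraries. Only the DPP4_pos vehicle libraries lay apart, above all others. The fall was 6.1-fold (log2 difference -2.61 ± 0.32 (SE), adjusted p = 1.55e-07, limma), and the responses differed (log2 difference -2.34 ± 0.45 (SE), adjusted p = 0.000126). Col4a3 fell 2.32-fold in DPP4_pos APCs (log2 difference -1.21 ± 0.31 (SE), adjusted p = 0.00103), and no difference of the responses was called (adjusted p = 0.153, and 0.045 with scaling outside the collagens, limma). Both were higher in DPP4_pos APCs under vehicle, by 3.03-fold for Col4a4 and 2.51-fold for Col4a3. Under isoproterenol Col4a4 was called lower in DPP4_pos APCs (log2 difference -0.74, adjusted p = 0.0414, limma), with -0.40 without DPP4_pos isoproterenol replicate 4 and the call also lost without DPP4_pos isoproterenol replicate 2 or DPP4_neg isoproterenol replicate 1, 2 or 4. It was lost too with no filter on low values (adjusted p = 0.084), quantile normalization (0.101), a fit of only the groups compared (0.107), edgeR (0.0515) and DESeq2 (0.0634). C430014B12Rik, on the opposite strand, shares 274 of the 8554 exon bases of Col4a3, and without a record of strand its reads cannot be told apart there.

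The multiplexin Col15a1 (chromosome 4, 47207655 to 47313167), a basement membrane zone collagen of vessels and fat, had 5048, 5187, 5265 and 5071 in DPP4_neg vehicle, 4648, 4799, 5046 and 4700 in DPP4_neg isoproterenol, 8208, 8227, 7770 and 7938 in DPP4_pos vehicle and 3885, 3476, 3683 and 3659 in DPP4_pos isoproterenol libraries. DPP4_pos APCs held both the highest libraries, under vehicle, and the lowest, under isoproterenol. Isoproterenol lowered it 2.19-fold there (log2 difference -1.13 ± 0.04 (SE), adjusted p = 1.28e-17, limma) and by 0.10 on the log2 scale (adjusted p = 0.0186) in DPP4_neg APCs, and the responses differed (log2 difference -1.03 ± 0.05 (SE), adjusted p = 2.37e-13). The DPP4_neg call was lost without DPP4_neg vehicle replicate 3 or DPP4_neg isoproterenol replicate 1 or 4, with a range of -0.12 to -0.09 when 1 library was left out. The order of the populations turned with the treatment: 1.56-fold higher in DPP4_pos APCs under vehicle (adjusted p = 6.49e-13) and 1.31-fold lower under isoproterenol (adjusted p = 3.23e-09).

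Col18a1 (chromosome 10, 77052178 to 77166530), the source of the fragment endostatin, was the 1 collagen gene called higher with isoproterenol in DPP4_neg and lower in DPP4_pos APCs. It had 743, 836, 837 and 733 in DPP4_neg vehicle, 882, 962, 923 and 900.4 in DPP4_neg isoproterenol, 1114, 1012, 979 and 1056 in DPP4_pos vehicle and 768, 678, 744 and 719.7 in DPP4_pos isoproterenol libraries. Within each population the treatments did not overlap. The log2 differences were 0.22 ± 0.05 (adjusted p = 0.00115) and -0.52 ± 0.05 (adjusted p = 1.4e-08), and the difference of the responses was -0.74 ± 0.08 (adjusted p = 3.5e-08, limma). As with Col15a1, DPP4_pos APCs had more under vehicle (log2 difference 0.40) and less under isoproterenol (-0.33). Endothelial cells are another source of type IV and XVIII collagen. Of 9 endothelial markers 6 were tested and all 6 were higher in DPP4_pos APCs under both treatments, with summed levels of 210.5 to 238 and 243 to 308 in the vehicle and isoproterenol libraries of DPP4_neg APCs, and 1189 to 1255 and 1321 to 1446 in those of DPP4_pos APCs. With isoproterenol 4 of them rose and 1 fell in DPP4_neg, and 3 rose and 1 fell in DPP4_pos APCs. Most of these counts were Tek and Kdr, and Pecam1 averaged 9.13, 12.5, 34.8 and 50.5. Adipocyte markers, of cells that carry their own basement membrane, were lower with isoproterenol and in DPP4_pos APCs in 5 of 5 tested of 6, at summed levels of 55980 to 65250, 20260 to 24670, 16620 to 19110 and 4889 to 5831 in the same order, with Lep at a mean of 0 in both isoproterenol groups. Beside these counts, 31.6% of all genes were higher and 35.0% lower in DPP4_pos APCs under vehicle, and 37.4% and 37.0% under isoproterenol. With isoproterenol 32.1% of all genes rose and 33.6% fell in DPP4_neg APCs, and 39.4% rose and 43.3% fell in DPP4_pos APCs. The part of endothelial cells or adipocytes in these differences was not tested.

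The FACIT genes Col12a1 and Col14a1 differed several-fold between the populations, in opposite directions. Of the 5, 3 were higher and 1 lower in DPP4_pos APCs under vehicle, and 2 were higher and 1 lower under isoproterenol. Over all genes the shares were 31.6% and 35.0% under vehicle, and 37.4% and 37.0% under isoproterenol. Col12a1 (chromosome 9, 79598987 to 79721141), which coats type I fibrils in tendon, muscle and other tissues under load, had 77270, 73870, 73900 and 73560 in DPP4_neg vehicle, 66930, 56650, 64110 and 69970 in DPP4_neg isoproterenol, 17370, 16240, 16400 and 18010 in DPP4_pos vehicle and 16760, 14080, 15850 and 17420 in DPP4_pos isoproterenol libraries. All DPP4_neg libraries lay far above all DPP4_pos libraries, by 4.39-fold under vehicle (log2 difference -2.13 ± 0.06 (SE), adjusted p = 5.05e-18, limma) and 4.02-fold under isoproterenol (log2 difference -2.01 ± 0.06 (SE), adjusted p = 1.3e-17). Isoproterenol lowered it 1.16-fold in DPP4_neg APCs (adjusted p = 0.00386). In DPP4_pos APCs the log2 difference was -0.09 (adjusted p = 0.186), and a difference of the responses was not called (0.13, adjusted p = 0.206). These depended on the scaling: the DPP4_pos value was -0.51 after quantile normalization (adjusted p = 1.42e-07) and -0.39 with scaling outside the collagens (adjusted p = 4.51e-06, limma), and the difference of the responses -0.33 (adjusted p = 0.00285) and -0.16.

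Col14a1 (chromosome 15, 55307644 to 55520803), a close relative of Col12a1 that binds decorin on fibrils, had the opposite order. It stood at 1689, 1678, 1753 and 1568 in DPP4_neg vehicle, 1492, 1339, 1424 and 1432 in DPP4_neg isoproterenol, 5586, 6016, 5981 and 5662 in DPP4_pos vehicle and 5308, 5134, 5407 and 5220 in DPP4_pos isoproterenol libraries. Every DPP4_pos library was above every DPP4_neg one, and the vehicle libraries were the higher in each population. The populations differed 3.48-fold under vehicle (log2 difference 1.80 ± 0.04 (SE), adjusted p = 5.62e-20, limma) and 3.71-fold under isoproterenol (log2 difference 1.89 ± 0.04 (SE), adjusted p = 2.45e-20). Isoproterenol lowered it 1.18-fold in DPP4_neg and 1.1-fold in DPP4_pos APCs (adjusted p = 2.32e-05 and 0.00254).

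Col16a1 (chromosome 4, 130047817 to 130099277), found at fibrils and at cell attachment sites, had 3380, 3101, 3297 and 3406 in DPP4_neg vehicle, 3080, 3349, 3447 and 3183 in DPP4_neg isoproterenol, 5264, 5463, 5442 and 5452 in DPP4_pos vehicle and 3991, 4019, 3645 and 3848 in DPP4_pos isoproterenol libraries. The DPP4_pos vehicle libraries were the highest, the DPP4_pos isoproterenol libraries came next, and the DPP4_neg groups overlapped below them. It fell 1.4-fold with isoproterenol in DPP4_pos APCs (log2 difference -0.48 ± 0.04 (SE), adjusted p = 3.32e-10, limma), where DPP4_neg APCs showed -0.01 (adjusted p = 0.771), and the responses differed (-0.47, adjusted p = 3.81e-07). Its excess in DPP4_pos APCs was 1.64-fold under vehicle and 1.19-fold under isoproterenol, and the latter call was lost after quantile normalization (log2 difference 0.02) and scaling outside the collagens (0.03). Col20a1, a small FACIT member, rose with isoproterenol in both populations, from 15.9 ± 4.66 to 49.4 ± 3.33 in DPP4_neg and from 34.9 ± 5.31 to 59 ± 11 in DPP4_pos APCs. Col9a3, a chain of a cartilage FACIT, had at most 14.2 on average in any group and was called in no comparison. Its difference between the populations under vehicle (log2 difference 1.07, adjusted p = 0.0868, limma) was called with a pseudocount of 5 (adjusted p = 0.0248), in a fit of only the groups compared (0.00852), with edgeR (0.00471) and with DESeq2 (0.00683), and that under isoproterenol after quantile normalization (0.0431). Tcfl5, on the opposite strand, shares 234 of its 3046 exon bases.

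**Figure D4:**
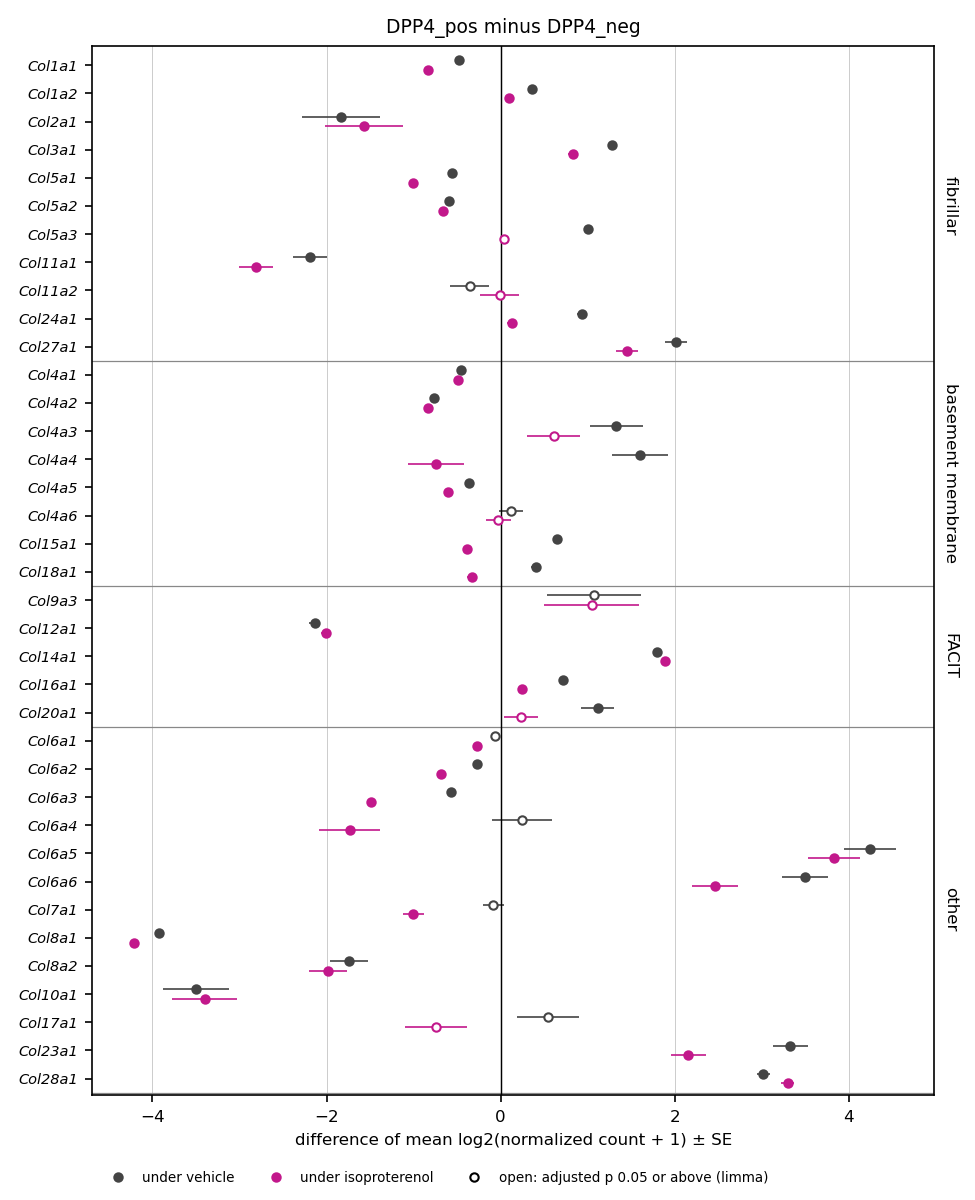
Difference of mean log2(normalized count + 1) between DPP4_pos and DPP4_neg APCs for the 37 collagen genes, ± SE from limma, under vehicle (grey) and isoproterenol (magenta), with 4 libraries per group. Filled points have an adjusted p under 0.05. Col8a1, Col10a1 and Col12a1 lie far left of 0 and Col6a5, Col23a1 and Col28a1 far right of 0 under both treatments. Col10a1 passed the filter chiefly through DPP4_neg and Col6a5 through DPP4_pos libraries, so that their difference was a condition of being tested.

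The class of other collagens held the widest differences between the populations. Its largest members by count, the type VI chains, which form the beaded filaments around fat cells, fell with isoproterenol in both populations. Col6a3 (chromosome 1, 90766860 to 90844001), whose last domain is released as endotrophin, had 35150, 32950, 32860 and 32770 in DPP4_neg vehicle, 28020, 27030, 28630 and 29100 in DPP4_neg isoproterenol, 23550, 22090, 22190 and 22320 in DPP4_pos vehicle and 11040, 9300, 9657 and 10260 in DPP4_pos isoproterenol libraries. The 4 groups did not overlap, and the DPP4_pos isoproterenol libraries were far below the rest. The fall was 1.19-fold in DPP4_neg (log2 difference -0.25 ± 0.04 (SE), adjusted p = 5.73e-05, limma) and 2.24-fold in DPP4_pos APCs (log2 difference -1.17 ± 0.04 (SE), adjusted p = 3.6e-16), with a difference of the responses of -0.92 (adjusted p = 5.22e-11). After quantile normalization the DPP4_neg difference of Col6a3 was -0.11 (adjusted p = 0.0802). DPP4_pos APCs had 1.48-fold less under vehicle and 2.81-fold less under isoproterenol (adjusted p = 2.5e-10 and 1.05e-17).

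Col6a1 and Col6a2, neighbours on chromosome 10 that share a direction of transcription, fell less. Col6a1 averaged 30830, 26010, 29400 and 21470 in DPP4_neg vehicle, DPP4_neg isoproterenol, DPP4_pos vehicle and DPP4_pos isoproterenol libraries, with log2 differences of -0.24 and -0.45 for isoproterenol (adjusted p = 1.2e-05 and 5.69e-10, limma). Col6a2 averaged 27480, 24030, 22660 and 14980, with log2 differences of -0.20 and -0.60 (adjusted p = 0.000544 and 3.47e-11). Both responses differed between the populations, by -0.21 and -0.40.

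The longer type VI genes of the cluster on chromosome 9 were rare. Col6a5 had 84.2, 68.4, 75.3 and 62.5 in DPP4_pos vehicle and 53.9, 47, 74.5 and 50.7 in DPP4_pos isoproterenol libraries, and Col6a6 had 80.7, 85.5, 76.2 and 82.8 and 50.6, 38.3, 27.8 and 26.3. In DPP4_neg libraries neither passed 8.08, so these genes were read mainly in DPP4_pos APCs, the condition that also let them pass the filter. Under vehicle the log2 differences between the populations were 4.25 ± 0.30 and 3.50 ± 0.27 (adjusted p = 3.58e-11 and 1.33e-10, limma). Col6a6 fell 2.31-fold with isoproterenol in DPP4_pos APCs (adjusted p = 0.000274), and Col6a5 showed -0.37 (adjusted p = 0.257, limma), which was called in a fit of only the groups compared (0.0465), with edgeR (0.0359) and with scaling outside the collagens (-0.66, adjusted p = 0.0456) and was 0.17 after quantile normalization. Next to them Col6a4 was not called between the populations under vehicle (log2 difference 0.25) and fell 3.66-fold with isoproterenol in DPP4_pos APCs (adjusted p = 4.19e-05), from 19.4 ± 6.37 to 5.01 ± 2.95. Transcripts on the opposite strand share 162 and 127 of the 7371 exon bases of Col6a4, and cannot be told apart there.

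Col8a1 (chromosome 16, 57624256 to 57754737), a short network collagen of vessel walls and cornea that is made by smooth muscle cells after injury, showed the largest population difference among the collagen genes with a mean of at least 50 over the 16 libraries. It had 14650, 16580, 16000 and 15010 in DPP4_neg vehicle, 7874, 7781, 7718 and 7581 in DPP4_neg isoproterenol, 1083, 956, 1022 and 1042 in DPP4_pos vehicle and 444, 419.9, 402 and 408 in DPP4_pos isoproterenol libraries. No groups overlapped, and isoproterenol libraries were the lower in each population. DPP4_pos APCs had 15.2-fold less under vehicle (log2 difference -3.92 ± 0.04 (SE), adjusted p = 6.1e-25, limma) and 18.5-fold less under isoproterenol (log2 difference -4.21 ± 0.04 (SE), adjusted p = 2.73e-25). Isoproterenol lowered it 2.01-fold in DPP4_neg (log2 difference -1.01 ± 0.04 (SE), adjusted p = 6.57e-15) and 2.45-fold in DPP4_pos APCs (log2 difference -1.29 ± 0.04 (SE), adjusted p = 3.18e-17), with a difference of the responses of -0.28 (adjusted p = 0.000382). Col8a2, its partner chain, moved the same way at a far lower level, from 105 ± 11.8 to 42.1 ± 6.92 in DPP4_neg and from 31.3 ± 8.58 to 10.1 ± 2.9 in DPP4_pos APCs.

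Col8a1, Col8a2, Col11a1 and Col12a1 were among the 14 collagen genes lower in DPP4_pos APCs under both treatments (19.5% of all genes). Most contractile markers were lower there too, while mural markers went both ways. Of 5 contractile markers, all tested, 4 were lower in DPP4_pos APCs under vehicle and 5 under isoproterenol, and 4 and 5 fell with isoproterenol in DPP4_neg and DPP4_pos APCs. Their summed level was 178100 to 196300 and 134200 to 143100 in the vehicle and isoproterenol libraries of DPP4_neg APCs, and 25340 to 26650 and 19110 to 21110 in those of DPP4_pos APCs, with Acta2 at means of 99430, 68180, 6126 and 3983. Of 9 mural markers 8 were tested, with 1 higher and 4 lower in DPP4_pos APCs under vehicle and 3 higher and 5 lower under isoproterenol, and with isoproterenol 1 rose and 5 fell in DPP4_neg and 3 rose and 5 fell in DPP4_pos APCs. Their summed level ranged over 8338 to 8576, 5640 to 5975, 1997 to 2099 and 1315 to 1463 in the same groups. Kcnj8 went from 12.3 to 87.2 and from 16.9 to 151 with isoproterenol. Rgs5 averaged at most 27.8, and Higd1b had 4 reads in all libraries. Beside these counts, 31.6% of all genes were higher and 35.0% lower in DPP4_pos APCs under vehicle, and 37.4% and 37.0% under isoproterenol. With isoproterenol 32.1% of all genes rose and 33.6% fell in DPP4_neg APCs, and 39.4% rose and 43.3% fell in DPP4_pos APCs. The part of mural or contractile cells, or of a contractile state, in the collagen differences was not tested.

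Col28a1, a collagen with von Willebrand factor A domains known from peripheral nerve, was on the other side. It had 804, 1009, 968 and 767 in DPP4_neg vehicle, 547, 576, 678 and 554 in DPP4_neg isoproterenol, 7079, 7066, 7082 and 7370 in DPP4_pos vehicle and 5716, 5575, 5902 and 5900 in DPP4_pos isoproterenol libraries. Every DPP4_pos library lay far above the DPP4_neg ones, by 8.1-fold under vehicle (log2 difference 3.02 ± 0.07 (SE), adjusted p = 1.81e-19, limma) and 9.82-fold under isoproterenol (log2 difference 3.30 ± 0.07 (SE), adjusted p = 4.18e-20). Isoproterenol lowered it in both populations, 1.5-fold in DPP4_neg and 1.24-fold in DPP4_pos APCs (adjusted p = 2.59e-07 and 0.000461). It was the 1 collagen gene whose response was called higher in DPP4_pos APCs (log2 difference 0.28, adjusted p = 0.0211, limma), which turned to -0.21 after quantile normalization and -0.01 with scaling outside the collagens and was lost without DPP4_neg vehicle replicate 2 or 3 (0.21 to 0.35 when 1 library was left out). Of 5 Schwann cell markers 2 were tested, their summed level was 91.3 to 112, 56.4 to 73.4, 66.3 to 89.2 and 15.7 to 27.9 in the 4 groups, and Sox10 had 18 reads in all libraries.

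Col23a1 (chromosome 11, 51289679 to 51583925), a transmembrane collagen, had 14.5, 18.5, 15.7 and 26.4 in DPP4_neg vehicle, 32.4, 52.1, 23.7 and 26.2 in DPP4_neg isoproterenol, 199.9, 199, 193 and 177 in DPP4_pos vehicle and 142, 183, 133 and 133 in DPP4_pos isoproterenol libraries. The populations lay apart under both treatments, and the treatments overlapped within each population. DPP4_pos APCs had 10-fold more under vehicle (log2 difference 3.33 ± 0.20 (SE), adjusted p = 2.45e-12, limma) and 4.46-fold more under isoproterenol (adjusted p = 2.92e-09). Isoproterenol raised it 1.72-fold in DPP4_neg APCs (adjusted p = 0.00184), DPP4_pos APCs showed -0.39 on the log2 scale (adjusted p = 0.0779, limma), and the responses differed (-1.17, adjusted p = 0.0012). The DPP4_pos fall was called in a fit of only the groups compared (adjusted p = 0.0034), with scaling outside the collagens (-0.69, adjusted p = 0.00339, limma), with edgeR (0.00526) and with DESeq2 (0.012). Col10a1, the collagen of hypertrophic cartilage, averaged 78.7 ± 5.61 and 58.8 ± 11.8 in the DPP4_neg and 7.13 ± 4.41 and 5.12 ± 2.94 in the DPP4_pos vehicle and isoproterenol groups, and neither response to isoproterenol was called, except that of DPP4_neg APCs in a fit of only the groups compared (adjusted p = 0.0156, limma) and with edgeR (0.0467).

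Of the epithelial anchoring collagens, Col7a1 (chromosome 9, 108953586 to 108984875), which forms the anchoring fibrils of skin, had 90, 75.9, 69.4 and 111 in DPP4_neg vehicle, 225, 186, 186 and 181 in DPP4_neg isoproterenol, 77.1, 80.3, 82.4 and 82 in DPP4_pos vehicle and 95.5, 103, 96.5 and 90.2 in DPP4_pos isoproterenol libraries. The DPP4_neg isoproterenol libraries stood above all others. It rose 2.26-fold with isoproterenol in DPP4_neg APCs (log2 difference 1.18 ± 0.12 (SE), adjusted p = 1.59e-08, limma). In DPP4_pos APCs the groups did not overlap, yet the log2 difference of 0.26 had an adjusted p of 0.0535, and the responses differed (-0.92, adjusted p = 6.88e-05). When limma was fitted to the DPP4_pos groups alone the adjusted p of that rise was 0.0309, after quantile normalization the difference was 0.76 (adjusted p = 6.38e-06), and with scaling outside the collagens the difference was -0.04. Under isoproterenol it was 2-fold lower in DPP4_pos APCs (adjusted p = 1.32e-07).

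Col17a1, a transmembrane collagen of hemidesmosomes, stood at 1.52, 7.79, 1.68 and 2.03 in DPP4_neg vehicle, 34, 31.6, 42.6 and 38.1 in DPP4_neg isoproterenol, 2.69, 5.2, 7.08 and 3.38 in DPP4_pos vehicle and 21.4, 15.7, 24.8 and 24.4 in DPP4_pos isoproterenol libraries. Isoproterenol libraries were the high ones in both populations, without overlap, which is also what let the gene pass the filter. The rise was 10.2-fold in DPP4_neg (log2 difference 3.35 ± 0.35 (SE), adjusted p = 3.15e-08, limma) and 4.17-fold in DPP4_pos APCs (log2 difference 2.06 ± 0.35 (SE), adjusted p = 1.7e-05). The difference of the responses, -1.29 (adjusted p = 0.0304), was lost when any of 7 libraries was left out, namely DPP4_neg vehicle replicate 1, 3 or 4, DPP4_neg isoproterenol replicate 3, DPP4_pos vehicle replicate 2 or 3, or DPP4_pos isoproterenol replicate 2 (-1.71 to -1.09), and also with no filter on low values (adjusted p = 0.0652) and after quantile normalization (-0.87, adjusted p = 0.133, limma). None of 5 epithelial markers passed the filter, and their summed level was 0 to 43.3 and 2.62 to 93.1 in the vehicle and isoproterenol libraries of DPP4_neg APCs, and 0 to 2.69 and 1.12 to 3.48 in those of DPP4_pos APCs, with Krt14 and Krt18 at 0 in all DPP4_pos libraries. Of 6 mesothelial markers 2 were tested, the keratin gene Krt19 and Wt1. Krt19 averaged 677 and 1451 in DPP4_neg vehicle and isoproterenol libraries, and 103 and 154 in DPP4_pos ones. Wt1 averaged 3.99, 5.55, 33.3 and 7.58 in the same order. The part of epithelial or mesothelial cells in the rise of Col7a1 and Col17a1 was not tested.

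Chains of the same molecule were also compared as ratios, since a ratio within a library does not depend on its scaling. The tests and log2 differences used the log2 ratio of normalized count plus 1, without regard to length. The ratios given for each group are per kilobase of transcript. Of 24 exact two-sided permutation tests, over 6 chain pairs and 4 comparisons of 4 against 4 libraries, 19 had a Benjamini-Hochberg adjusted p under 0.05. The smallest p that such a test allows is 0.0286, which became 0.0361 after adjustment and was reached by all 19. Type I collagen is built of Col1a1 and Col1a2 chains, mostly with more of the former. Per kilobase the ratio of Col1a1 to Col1a2 was 1.43 ± 0.0253 in DPP4_neg vehicle, 1.51 ± 0.0464 in DPP4_neg isoproterenol, 0.8 ± 0.0145 in DPP4_pos vehicle and 0.796 ± 0.0236 in DPP4_pos isoproterenol libraries. The populations did not overlap, with log2 differences of -0.83 under vehicle and -0.93 under isoproterenol. Isoproterenol changed the ratio by -0.01 in DPP4_pos APCs (exact permutation p = 0.743), where both chains fell. In DPP4_neg APCs the change was 0.08, a call lost when any of 6 libraries was left out. The ratio of Col4a1 to Col4a2 rose with isoproterenol in both populations, from 1.28 ± 0.0123 to 1.51 ± 0.0368 in DPP4_neg and from 1.59 ± 0.0436 to 1.93 ± 0.0287 in DPP4_pos APCs.

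**Figure D5:**
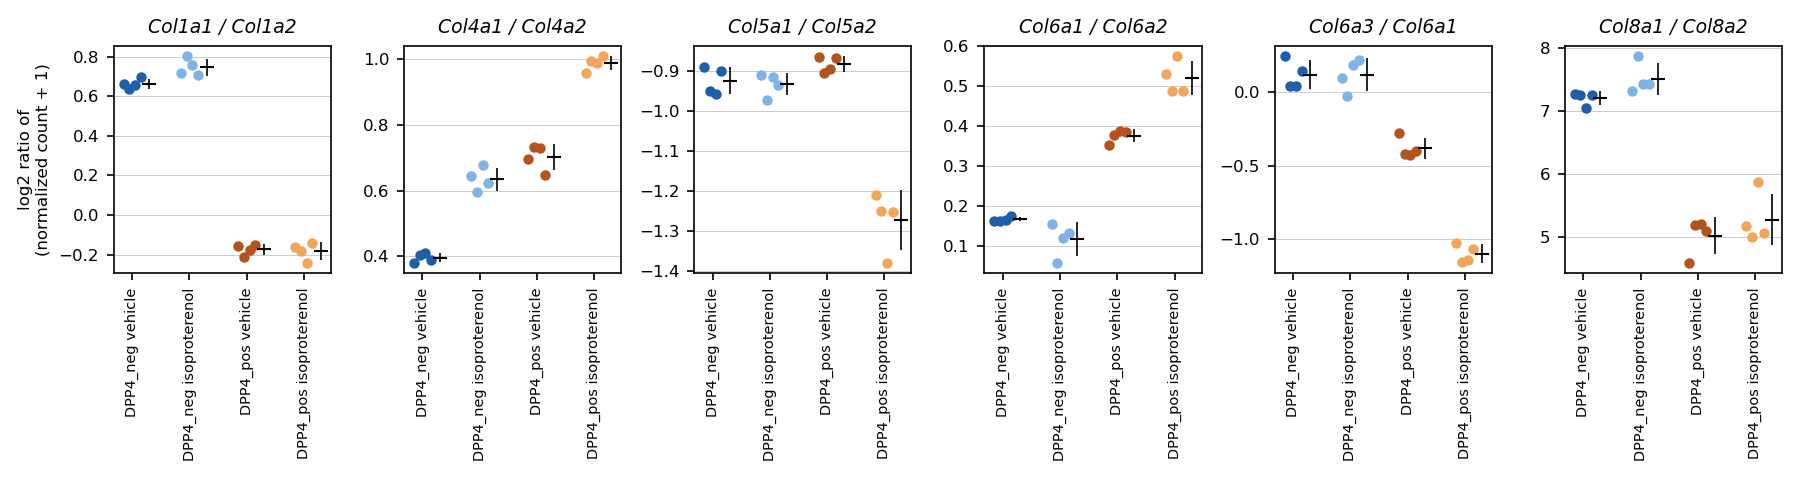
Log2 ratio of normalized count plus 1 between chains of the same collagen type, 1 point per library, with the mean ± SD of the 4 libraries of each group as a cross. The ratio of Col1a1 to Col1a2 separates the populations, that of Col4a1 to Col4a2 is higher with isoproterenol in each population, and that of Col6a3 to Col6a1 is lowest in DPP4_pos isoproterenol libraries.

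In type VI collagen, which needs all 3 main chains, the ratio of Col6a3 to Col6a1 was 0.411 ± 0.028 and 0.411 ± 0.0309 in DPP4_neg vehicle and isoproterenol libraries, 0.29 ± 0.0142 in DPP4_pos vehicle and 0.177 ± 0.00779 in DPP4_pos isoproterenol libraries. It fell by 0.71 on the log2 scale with isoproterenol in DPP4_pos APCs, and in DPP4_neg APCs the difference was 0.00 (exact permutation p = 1). The ratio of Col6a1 to Col6a2 ran from 1.59 ± 0.0461 in DPP4_neg isoproterenol to 2.1 ± 0.0608 in DPP4_pos isoproterenol libraries. That of Col5a1 to Col5a2 fell with isoproterenol in DPP4_pos APCs, from 0.427 ± 0.00608 to 0.327 ± 0.0164, and in DPP4_neg APCs it was 0.415 ± 0.00981 and 0.413 ± 0.00786 (exact permutation p = 0.686). The ratio of Col8a1 to Col8a2 was 126 ± 9.11 in DPP4_neg and 28.9 ± 5.45 in DPP4_pos vehicle libraries.

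The genes that modify, fold, trim, cross-link and bind collagen were taken from lists of 78 genes, of which 74 were tested. With isoproterenol 27 rose and 28 fell in DPP4_neg APCs, and 26 rose and 34 fell in DPP4_pos APCs, and between the populations 28 were higher and 41 lower in DPP4_pos APCs under vehicle, and 28 and 37 under isoproterenol. The calls in the 74 stand beside 65.7%, 82.7%, 66.6% and 74.4% of all genes called in the same 4 comparisons, and for the single lists that follow the background is again 32.1% higher and 33.6% lower in the DPP4_neg response, 39.4% and 43.3% in the DPP4_pos response, and 31.6% and 35.0% between the populations under vehicle. The medians of the 74 were -0.01, -0.09, -0.20 and -0.16. Of the 14 modifying enzymes, 2 were higher and 11 lower in DPP4_pos APCs under vehicle. P4ha1 and P4ha2 encode catalytic subunits of the prolyl hydroxylase that stabilises the helix. P4ha2 rose with isoproterenol from 4525 ± 136 to 6926 ± 369 in DPP4_neg and from 1784 ± 28.7 to 2475 ± 68.3 in DPP4_pos APCs (adjusted p = 2.06e-12 and 8.66e-11, limma). P4ha1 rose in DPP4_pos APCs (log2 difference 0.25), a direction that turned to -0.19 after quantile normalization and -0.04 with scaling outside the collagens. Plod2, the lysyl hydroxylase for telopeptide cross-links, fell by 0.17 and 0.37 on the log2 scale in DPP4_neg and DPP4_pos APCs, and Plod1 fell by 0.53 in DPP4_pos APCs. P3h2, a prolyl 3-hydroxylase that acts on type IV collagen, averaged 176 ± 9.1, 44.2 ± 11.6, 36.8 ± 7.58 and 10.8 ± 6.61 in DPP4_neg vehicle, DPP4_neg isoproterenol, DPP4_pos vehicle and DPP4_pos isoproterenol libraries, a fall of 4.01-fold and 3.52-fold with isoproterenol (adjusted p = 7.44e-07 and 1.59e-06, limma), where Col4a1 and Col4a2 rose.

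Of the 10 folding and export genes tested, 6 rose and 3 fell in DPP4_neg and 6 rose and 4 fell in DPP4_pos APCs. Serpinh1, the collagen chaperone HSP47, fell from 35430 to 31440 and from 26350 to 22550 (adjusted p = 0.000114 and 2.6e-06, limma), and the first of these calls was lost after quantile normalization. Sar1b, a GTPase of the vesicles that carry procollagen out of the endoplasmic reticulum, rose by 0.40 and 0.71 on the log2 scale. Fkbp14, a prolyl isomerase that works on procollagen, fell 2.08-fold in DPP4_pos APCs (log2 difference -1.05 ± 0.04 (SE), adjusted p = 8.26e-16, limma), with a difference of the responses of -0.94. Creb3l1, a transcription factor for type I collagen genes, was 1.93-fold lower in DPP4_pos APCs under vehicle and 2.85-fold lower under isoproterenol.

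The main proteases that trim procollagen ends rose with isoproterenol in both populations, within a list of 8 genes of which 4 rose and 1 fell in each population. Tll1, of the same family as Bmp1, the procollagen C-proteinase, ranged over 41.4 to 66.3 under vehicle and 2489 to 2958 under isoproterenol in DPP4_neg libraries, and over 25.7 to 37.2 and 2558 to 2948 in DPP4_pos libraries. The treatments lay far apart in both populations, by 46-fold in DPP4_neg (log2 difference 5.52 ± 0.12 (SE), adjusted p = 2.52e-20, limma) and 86.4-fold in DPP4_pos APCs (log2 difference 6.43 ± 0.12 (SE), adjusted p = 8.19e-22). Bmp1 rose 1.51-fold and 1.68-fold (adjusted p = 2.91e-12 and 1.97e-14). Pcolce and Pcolce2, enhancers of that protease, were 2.19-fold and 5.13-fold higher in DPP4_pos APCs under vehicle (adjusted p = 7.36e-16 and 1.04e-19).

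Of the 6 cross-linking enzymes, 5 were lower in DPP4_pos APCs under vehicle. Lox, the lysyl oxidase that cross-links fibrils, averaged 86480 ± 1421, 52320 ± 3778, 42750 ± 1907 and 24980 ± 708 in DPP4_neg vehicle, DPP4_neg isoproterenol, DPP4_pos vehicle and DPP4_pos isoproterenol libraries. It fell 1.66-fold and 1.71-fold with isoproterenol (adjusted p = 6.26e-12 and 8.82e-13, limma). Loxl2, which also acts on type IV collagen, rose by 0.45 and 1.56 on the log2 scale, and the response was the larger in DPP4_pos APCs (log2 difference 1.10 ± 0.06 (SE), adjusted p = 4.19e-13). Tgm2, a transglutaminase, rose 2.29-fold and 2.76-fold and was 5.61-fold lower in DPP4_pos APCs under vehicle.

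Among the fibril-binding proteins, 7 of 12 were higher and 4 lower in DPP4_pos APCs under vehicle. Decorin (Dcn), a proteoglycan of fibril surfaces, was 3.48-fold higher there (16830 against 58160), and Tnxb, which links fibrils, 8.39-fold. Fmod, another small proteoglycan, was lower, at 2477 ± 98.4 against 327 ± 5.42 (adjusted p = 9.22e-20, limma). Sparc, a collagen-binding matricellular protein, rose by 0.28 in DPP4_neg APCs and by 0.21 in DPP4_pos APCs, the latter turning to -0.09 with scaling outside the collagens. Aspn, a small proteoglycan that binds type I collagen, fell by 1.37 on the log2 scale with isoproterenol in DPP4_pos APCs.

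Of the 15 tested partners of type IV collagen in basement membranes, 4 rose and 8 fell in DPP4_neg and 4 rose and 7 fell in DPP4_pos APCs (medians -0.13 and -0.13). Lamb1, a laminin chain, rose 1.45-fold and 2.37-fold (adjusted p = 4.64e-12 and 6.52e-19, limma). Lama4 fell from 6000 to 3687 and from 10410 to 6928, and Nid1, which joins laminin to type IV collagen, changed by -0.13 and -0.13 on the log2 scale. Lama5 was 9.13-fold lower in DPP4_pos APCs under vehicle.

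Receptors for collagen were also uneven. Of the 9 tested, 3 rose and 4 fell in DPP4_neg and 3 rose and 5 fell in DPP4_pos APCs. Itga2, a subunit of an integrin for type I collagen, averaged 1222 ± 156, 1859 ± 178, 534 ± 38.8 and 2712 ± 210.3 in DPP4_neg vehicle, DPP4_neg isoproterenol, DPP4_pos vehicle and DPP4_pos isoproterenol libraries. It rose 5.07-fold in DPP4_pos APCs (log2 difference 2.34 ± 0.08 (SE), adjusted p = 5.25e-17, limma). Itga11, a fibrillar collagen receptor of fibroblasts, fell 4.74-fold there, from 1935 to 407. Itga1, of an integrin that prefers type IV collagen, was 4.16-fold lower in DPP4_pos APCs under vehicle. Of the discoidin domain receptors, which are kinases that collagen activates, Ddr2 rose 1.36-fold and 1.87-fold with isoproterenol (adjusted p = 5.23e-08 and 1.26e-13, limma), and Ddr1 fell in both, from 2822 to 1212 in DPP4_neg and from 1586 to 968 in DPP4_pos APCs.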

How the data were processed

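Bulk RNA-seq libraries were made from 500 ng of total RNA with the NEBNext Ultra II RNA kit, per the labels' protocols, which do not say whether strand was kept. Tools in the submitters' processing notes are DESeq2 1.6.3, featureCounts 1.4.6, HISAT2 2.0.1 and Trim Galore 0.4.1, with the builds GRCm38 and mm10; how they were set is not given in the sources used here. Per the file headers, the authors deposited normalized values, a signal that is each gene's read count over a size factor of the library. Whole reads were recovered from the smallest step of each library, and 100% of the 280334 non-zero values came within 0.001 of a whole number. Entries without a symbol, 958 with 0.0926% of the normalized counts, went through the same filter and are not named. Depth in each group ran from 16479650 to 28627223 reads (DPP4_neg vehicle), 10191846 to 22121496 (DPP4_neg isoproterenol), 17189166 to 20425332 (DPP4_pos vehicle) and 9823799 to 16563940 (DPP4_pos isoproterenol).

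Genes with a normalized count of at least 10 in at least 4 libraries were fitted with limma 3.58.1 in R 4.3.3 (trend, 4 group means, all 16 libraries) on log2(normalized count + 1), and p-values were adjusted over all 14005 genes by the Benjamini-Hochberg method. Only the limma fit of the DPP4_neg response was tested on simulated data first, with far fewer changed genes than were called here. The other comparisons, edgeR and DESeq2 were not tested in this way. Groups were taken from the sample titles. Positions, exon lengths and promoter windows come from RefSeq and the gene annotation of GRCm38.p6. The class of each collagen gene came from textbook knowledge. All genes of the pattern are named; values in every library are given for Col1a1, Col1a2, Col3a1, Col4a1, Col4a2, Col5a3, Col6a3, Col14a1, Col15a1, Col18a1 and, per class and comparison, the gene with the largest difference among those without overlap and a mean of at least 50 over the 16 libraries, and were added for Col4a4, Col6a5, Col6a6, Col17a1 and Col28a1 after their values were seen. The members, gene lists and tests were chosen with earlier results of these data known. Alternatives were pseudocounts of 0.5 and 5, other filters on low values, quantile normalization, scaling to the total outside collagen genes, edgeR 4.0.16 and DESeq2 1.42.0 on the recovered reads, fits of only the groups compared, a replicate block and leaving out each library. Genes of the lists that the text does not name enter the counts only.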

Additional observations from a re-analysis of the deposited data

Results flagged for a closer look

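Responses to isoproterenol that differed between the populations (DPP4_pos minus DPP4_neg, log2 scale, limma, adjusted p under 0.05) were the first kind of result to look at again. Among fibrillar genes the differences were -0.35 for Col1a1, -0.26 for Col1a2, -0.45 for Col3a1, -0.45 for Col5a1, -0.96 for Col5a3, -0.80 for Col24a1 and -0.56 for Col27a1. Among basement membrane genes they were -2.34 for Col4a4, -0.24 for Col4a5, -1.03 for Col15a1 and -0.74 for Col18a1, and among FACIT genes -0.47 for Col16a1 and -0.88 for Col20a1. In the class of other collagens they were -0.21 for Col6a1, -0.40 for Col6a2, -0.92 for Col6a3, -1.98 for Col6a4, -1.03 for Col6a6, -0.92 for Col7a1, -0.28 for Col8a1, -1.29 for Col17a1, -1.17 for Col23a1 and 0.28 for Col28a1. These 23 genes compare with 62.6% of all genes tested. After quantile normalization the calls of Col6a6 (-0.55, adjusted p = 0.21), Col20a1 (-0.51, adjusted p = 0.104), Col17a1 (-0.87, adjusted p = 0.133) and Col28a1 (-0.21) were lost, and that of Col28a1 also with scaling outside the collagens. The Col6a6 and Col17a1 calls were lost with no filter on low values too (adjusted p = 0.0538 and 0.0652, limma), and the Col6a6 call without DPP4_neg isoproterenol replicate 2. The Col17a1 call was lost when any of 7 libraries was left out and the Col28a1 call without DPP4_neg vehicle replicate 2 or 3.

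The second kind was a single library far from the other 3 of its group, relative to the range of the group. This held for 15 of the 148 groups of 4 libraries examined, where chance gives about 1 in 20. In DPP4_neg vehicle, replicate 1 was apart for Col6a3 (35150, others 32770 to 32950), Col12a1 (77270, others 73560 to 73900) and Col4a1 (38450, others 40150 to 40340). Replicate 2 of that group was apart for Col17a1 (7.79, others 1.52 to 2.03), Col6a6 (6.82, others 6.09 to 6.16) and Col4a6 (50.6, others 68.9 to 71.7). In DPP4_neg isoproterenol, replicate 3 was apart for Col9a3 (0, others 5.67 to 8.81) and Col4a6 (58.4, others 51.0 to 51.4), and replicate 1 for Col7a1 (225, others 181 to 186). In DPP4_pos vehicle, replicate 1 was apart for Col6a3 (23550, others 22090 to 22320) and Col16a1 (5264, others 5442 to 5463), replicate 2 for Col27a1 (354.5, others 323.6 to 327), and replicate 4 for Col1a2 (128300, others 124200 to 124500) and Col28a1 (7370, others 7066 to 7082). In DPP4_pos isoproterenol, replicate 3 was apart for Col8a2 (5.84, others 11.2 to 12.2).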

How the results depend on the processing

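Of 133 collagen results called, 118 kept their call and direction in every setting that tested them, libraries left out included. Genes that did not pass a filter of 50 were not tested in that setting. Fits of only the groups compared gave no difference of the responses. The number of collagen genes called stayed within 19 to 25 (DPP4_neg response), 24 to 32 (DPP4_pos response), 21 to 28 (difference of the responses), 28 to 31 (populations under vehicle) and 27 to 30 (under isoproterenol) over the settings other than leaving out a library. No pairing by replicate number was seen in the correlation of deviations, which ran from -0.23 to 0.13 over 24 same-numbered pairs. A shared origin of same-numbered libraries need not show in it. With a replicate block the counts were 22, 29, 24, 30 and 29, and the Col24a1 call between the populations under isoproterenol was lost (adjusted p = 0.052, limma).

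Results that changed sign, as log2 differences, were these, and the cause was not tested. In the DPP4_neg response, quantile normalization gave 0.28 for Col1a2, -0.057 for Col5a3 and -0.020 for Col6a5, scaling outside the collagens gave -0.008 for Col3a1, and edgeR gave 0.026 for Col9a3. In the DPP4_pos response, quantile normalization gave 0.25 for Col10a1, 0.16 for Col11a1, 0.10 for Col4a6, 0.17 for Col6a5 and -0.19 for P4ha1, and scaling outside the collagens gave -0.13 for Col27a1, -0.039 for Col7a1, -0.043 for P4ha1 and -0.089 for Sparc. In the difference of the responses, quantile normalization gave -0.33 for Col12a1, -0.32 for Col14a1, -0.21 for Col28a1, 0.21 for Col4a6, 0.19 for Col6a5, 0.009 for Col8a2 and 0.38 for Col9a3. Scaling outside the collagens gave -0.13 for Col10a1, -0.16 for Col12a1, -0.19 for Col14a1 and -0.008 for Col28a1 there, edgeR gave -0.005 for Col10a1, and pseudocounts of 5 and 0.5 gave -0.067 for Col2a1 and 0.16 for Col9a3. Between the populations under vehicle, quantile normalization gave -0.051 for Col4a6 and 0.001 for Col6a1, and scaling outside the collagens 0.002 for Col6a1. Under isoproterenol, quantile normalization gave 0.15 for Col11a2, -0.043 for Col1a2, 0.16 for Col4a6 and -0.20 for Col5a3, scaling outside the collagens gave -0.12 for Col1a2, -0.085 for Col24a1 and -0.17 for Col5a3, and DESeq2 gave 0.005 for Col11a2.

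Other settings also called differences that were not called in the fit reported. After quantile normalization these were the rises of Col1a1, Col1a2, Col3a1 and Col2a1 in the DPP4_neg response, the fall of Col12a1 (-0.51) and the rise of Col7a1 (0.76) in the DPP4_pos response, the differences of the responses of Col4a2, Col5a2, Col12a1 and Col14a1 (-0.35, -0.52, -0.33 and -0.32), Col11a2 between the populations under vehicle, and Col4a3, Col5a3 and Col9a3 between the populations under isoproterenol. With scaling outside the collagens they were the falls of Col6a5, Col11a1, Col12a1 and Col23a1 in the DPP4_pos response, the differences of the responses of Col4a1, Col4a2, Col4a3, Col5a2, Col11a1 and Col14a1, and Col5a3 and Col17a1 between the populations under isoproterenol. The replicate block called the Col11a1 difference of the responses (-0.62, adjusted p = 0.0308) and the Col2a1 rise in DPP4_neg APCs (0.98, adjusted p = 0.046, limma).

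Leaving out 1 library turned some uncalled differences, over the ranges that follow. In the DPP4_neg response these were -0.043 to 0.013 for Col16a1, -0.022 to 0.040 for Col3a1, -0.013 to 0.056 for Col5a3, -0.074 to 0.20 for Col6a4, -0.24 to 0.26 for Col6a5, -0.34 to 0.096 for Col6a6 and -0.86 to 0.24 for Col9a3. In the difference of the responses they were -0.35 to 0.41 for Col10a1, -0.18 to 0.64 for Col2a1 and -0.77 to 0.32 for Col9a3. Between the populations they were -0.18 to 0.043 for Col7a1 under vehicle, and -0.14 to 0.16 for Col11a2 and -0.072 to 0.042 for Col4a6 under isoproterenol.

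For the chain ratios, leaving out 1 library gave 0.063 to 0.096 for Col1a1/Col1a2, -0.020 to 0.004 for Col5a1/Col5a2, -0.063 to -0.030 for Col6a1/Col6a2, -0.034 to 0.048 for Col6a3/Col6a1 and 0.18 to 0.37 for Col8a1/Col8a2 in the DPP4_neg response, and -0.022 to 0.011 for Col1a1/Col1a2 in the DPP4_pos response. In the DPP4_neg response the Col1a1/Col1a2 call was lost when any of 6 libraries was left out. The Col6a1/Col6a2 and Col8a1/Col8a2 calls there were each lost without any of 4 libraries. With a pseudocount of 5 the Col8a1/Col8a2 change was 0.23 in DPP4_neg APCs, where its call was lost (adjusted p = 0.0722, exact permutation test), and -0.025 in DPP4_pos APCs. Shares of the collagen total per kilobase of transcript, in the order DPP4_neg vehicle, DPP4_neg isoproterenol, DPP4_pos vehicle and DPP4_pos isoproterenol, were 68.1, 66.2, 79.0 and 75.2% for fibrillar, 10.2, 16.6, 6.89 and 12.5% for basement membrane, 5.96, 5.11, 2.57 and 2.74% for FACIT and 15.7, 12.2, 11.5 and 9.61% for other genes. With types XV and XVIII counted under other, basement membrane genes held 9.78, 16.4, 6.45 and 13.2% and other genes 15.4, 12.2, 12.1 and 9.26%. At the depth of these libraries, genes with fewer than about 10 normalized counts a library rest on few reads.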

Other observations

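The 7 collagen genes under the filter were summed over the libraries of a group as reads, with no test. Col13a1, a transmembrane collagen, had 4 reads in the 4 DPP4_neg vehicle libraries together, 6 in DPP4_neg isoproterenol, 41 in DPP4_pos vehicle and 24 in DPP4_pos isoproterenol libraries. Col26a1 had 4, 6, 25 and 3 reads in the same order. Col9a2, a chain of a cartilage FACIT, had 15, 11, 5 and 2 reads, and Col19a1 had 16, 5, 12 and 1. Depth differed between the groups, and these sums are not scaled for it.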
